A study of Mus musculus with 222 samples.

Results

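The D cyclins, the kinases they bind, the inhibitors of those kinases and the retinoblastoma gene were followed through mammary tumors and mammary glands of mice. The 10 genes listed were Ccnd1, Ccnd2, Ccnd3, Cdk4, Cdk6, Cdkn1a, Cdkn1b, Cdkn2a, Cdkn2b and Rb1. Each gene was read from the probe set that carries its symbol alone and has the highest mean over all 222 arrays. A probe set of this kind was present for 9 of the 10 genes, among 19938 genes in all. Cdkn1a (p21) was left out because its probe set carries 2 symbols. The choice of probe sets used no comparison between groups, but the genes were listed with earlier results of these data known.

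Tumors were spontaneous mammary tumors of female mice with the MMTV-ErbB2 transgene, in which a mammary tumor virus promoter drives the ErbB2 protooncogene. They came from 3 genetic backgrounds, with 160 arrays from F1BX mice, 28 from F1 mice (C57BL/6 x FVB/N) and 26 from FVB/N mice, here FVB. F1BX is the backcross of F1 to FVB/N. Of 8 normal glands, 2 carried the transgene on the F1 background, 3 carried it on FVB, and 3 were F1 wild type. Tumors were collected at necropsy. The study gives ages for each background as a whole and not for each array, with later tumors and longer lives in F1 and F1BX than in FVB mice, so age and background cannot be told apart. How the normal glands were taken is not described. Signal from the transgene and from mouse Erbb2 was not separated. Values are log2 levels normalized by RMA (robust multiarray average), so a difference of 1 is a 2-fold difference, and levels of different probe sets are not compared. RNA came from whole tissue, so fewer cells of a type and less RNA per cell cannot be told apart.

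The spread of values divided the arrays. The interquartile range of an array was 1.86 to 2.62 in 34 arrays (narrow set) and 3.04 to 3.35 in 188 arrays (wide set), with none near the dividing value of 2.8. The narrow set held all 8 glands with 20 F1BX and 6 F1 tumors, and the wide set held 140 F1BX, 22 F1 and 26 FVB tumors. Because no gland was in the wide set, tumors and glands were compared over all arrays and again within the narrow set. Luminal epithelial markers had a median of 11.14 in wide and 10.97 in narrow tumors, against 10.24 in glands. The mean of 6 measured T cell markers (of 7 listed) was 5.69 to 6.74 in tumors and 7.59 to 9.21 in glands. The mean of 5 B cell markers (of 6) was 5.36 to 6.91 in tumors and 7.49 to 9.58 in glands, so neither list overlapped between tissues. How many of all probe sets part the tissues in this way was not counted. Erbb2 was 3.02 higher in tumors than in glands (SE 0.173), and it lay in the range of the glands in 4 tumor arrays.

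Cells enter the cycle when a D cyclin binds CDK4 or CDK6 and the pair phosphorylates the retinoblastoma protein, RB, which then releases E2F transcription factors and their target genes of DNA replication. The INK4 proteins p15 (from Cdkn2b) and p16 (from Cdkn2a) bind CDK4 and CDK6 and block them, and the CIP/KIP proteins p21 and p27 (from Cdkn1b) act on CDK2. Cdkn2a also encodes p19ARF, which protects p53. Cyclin D1 is known as a target of ErbB2 signaling in the mammary gland, where it is needed for tumors driven by ErbB2 in mice. Mki67, which encodes the Ki-67 protein of cycling cells, served as the measure of cycling.

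The start regions of Cdkn2a, Cdkn2b and Cdk4 are shown here because Cdkn2a and Cdkn2b varied together among the tumors and Cdk4 was higher in every tumor than in every gland. Sequences are from RefSeq on GRCm38.p6 and run 5′ to 3′ from 250 bases before a start site to 50 after it. Of the 9 genes, 6 had an entry in the table of promoters. The 2 starts of Cdkn2a lie at chr4:89294570-89294869 and chr4:89282143-89282442 on the minus strand, that of Cdkn2b at chr4:89310983-89311282 on the minus strand, and that of Cdk4 at chr10:127063285-127063584 on the plus strand. Capitals mark letters searched on both strands, which were an E2F form (TTTCCCGC, TTTCGCGC, TTTGCCGC or TTTGGCGC), a GC box (GGGCGG) and an E box (CACGTG). The first Cdkn2a start held 1 E2F form and 3 GC boxes, and its second start and Cdkn2b held 1 GC box each. Cdk4 held 4 E boxes and 3 GC boxes, of which 2 overlap each other. No E2F form overlapped a GC box in these 4 regions. Of 32851 promoters of this length, 2.26% held the E2F form, 35.7% a GC box, 10.7% at least 3 GC boxes, 7.15% an E box, and 0.0244% (8 promoters) at least 4 E boxes. These matches describe the letters only.
Cdkn2a, first start: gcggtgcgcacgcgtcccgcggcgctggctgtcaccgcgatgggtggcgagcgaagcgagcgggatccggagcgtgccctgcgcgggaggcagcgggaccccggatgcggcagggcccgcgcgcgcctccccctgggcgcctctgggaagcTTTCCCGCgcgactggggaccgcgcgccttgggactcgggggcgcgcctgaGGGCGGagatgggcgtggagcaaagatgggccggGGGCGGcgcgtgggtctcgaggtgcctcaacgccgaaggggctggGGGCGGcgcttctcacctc
Cdkn2a, second start: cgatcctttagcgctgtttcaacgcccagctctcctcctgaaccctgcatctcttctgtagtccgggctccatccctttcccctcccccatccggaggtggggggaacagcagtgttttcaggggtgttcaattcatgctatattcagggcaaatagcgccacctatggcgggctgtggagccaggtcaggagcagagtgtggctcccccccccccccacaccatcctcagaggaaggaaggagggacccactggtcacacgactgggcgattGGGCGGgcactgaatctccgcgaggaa
Cdkn2b: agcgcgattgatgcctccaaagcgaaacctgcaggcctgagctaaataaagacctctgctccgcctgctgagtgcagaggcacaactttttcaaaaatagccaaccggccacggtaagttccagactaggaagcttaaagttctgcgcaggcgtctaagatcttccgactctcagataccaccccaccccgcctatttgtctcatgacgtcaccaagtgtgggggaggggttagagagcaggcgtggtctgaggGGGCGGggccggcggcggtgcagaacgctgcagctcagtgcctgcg
Cdk4: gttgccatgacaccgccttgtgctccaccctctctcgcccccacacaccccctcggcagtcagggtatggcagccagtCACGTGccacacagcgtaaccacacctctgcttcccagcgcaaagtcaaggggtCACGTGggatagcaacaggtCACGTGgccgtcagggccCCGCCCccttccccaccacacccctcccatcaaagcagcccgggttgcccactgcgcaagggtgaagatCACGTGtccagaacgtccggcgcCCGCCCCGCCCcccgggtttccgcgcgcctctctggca

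Ccnd1 and Cdk4 rose and Ccnd2 fell in tumors relative to glands, over all arrays and within the narrow set. Ccnd1 was 2.93 higher in tumors over all arrays and 2.78 higher in the narrow set, and Cdk4 was 1.75 and 1.46 higher. Ccnd2 was lower, with differences of -1.47 and -1.61. Cdk6, Cdkn1b, Cdkn2a, Cdkn2b and Rb1 did not pass, and Ccnd3 did not reach 2-fold. A call needed a false discovery rate of at most 0.005 and a 2-fold difference in limma, with the mouse as a random block. The fit had no term for background or transgene. All tumors were from transgenic mice, but 3 of the 8 glands were wild type. The narrow set held FVB glands and no FVB tumors, and F1BX tumors and no F1BX glands. So 2 of the 9 genes were called higher and 1 lower, where 17.5% of all 35556 probe sets were called higher and 10.7% lower. Within the narrow set the same 3 genes were called, against 7.37% higher and 4.76% lower. The median difference over all probe sets was -0.11 over all arrays and -0.09 in the narrow set.

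**Figure D1:**
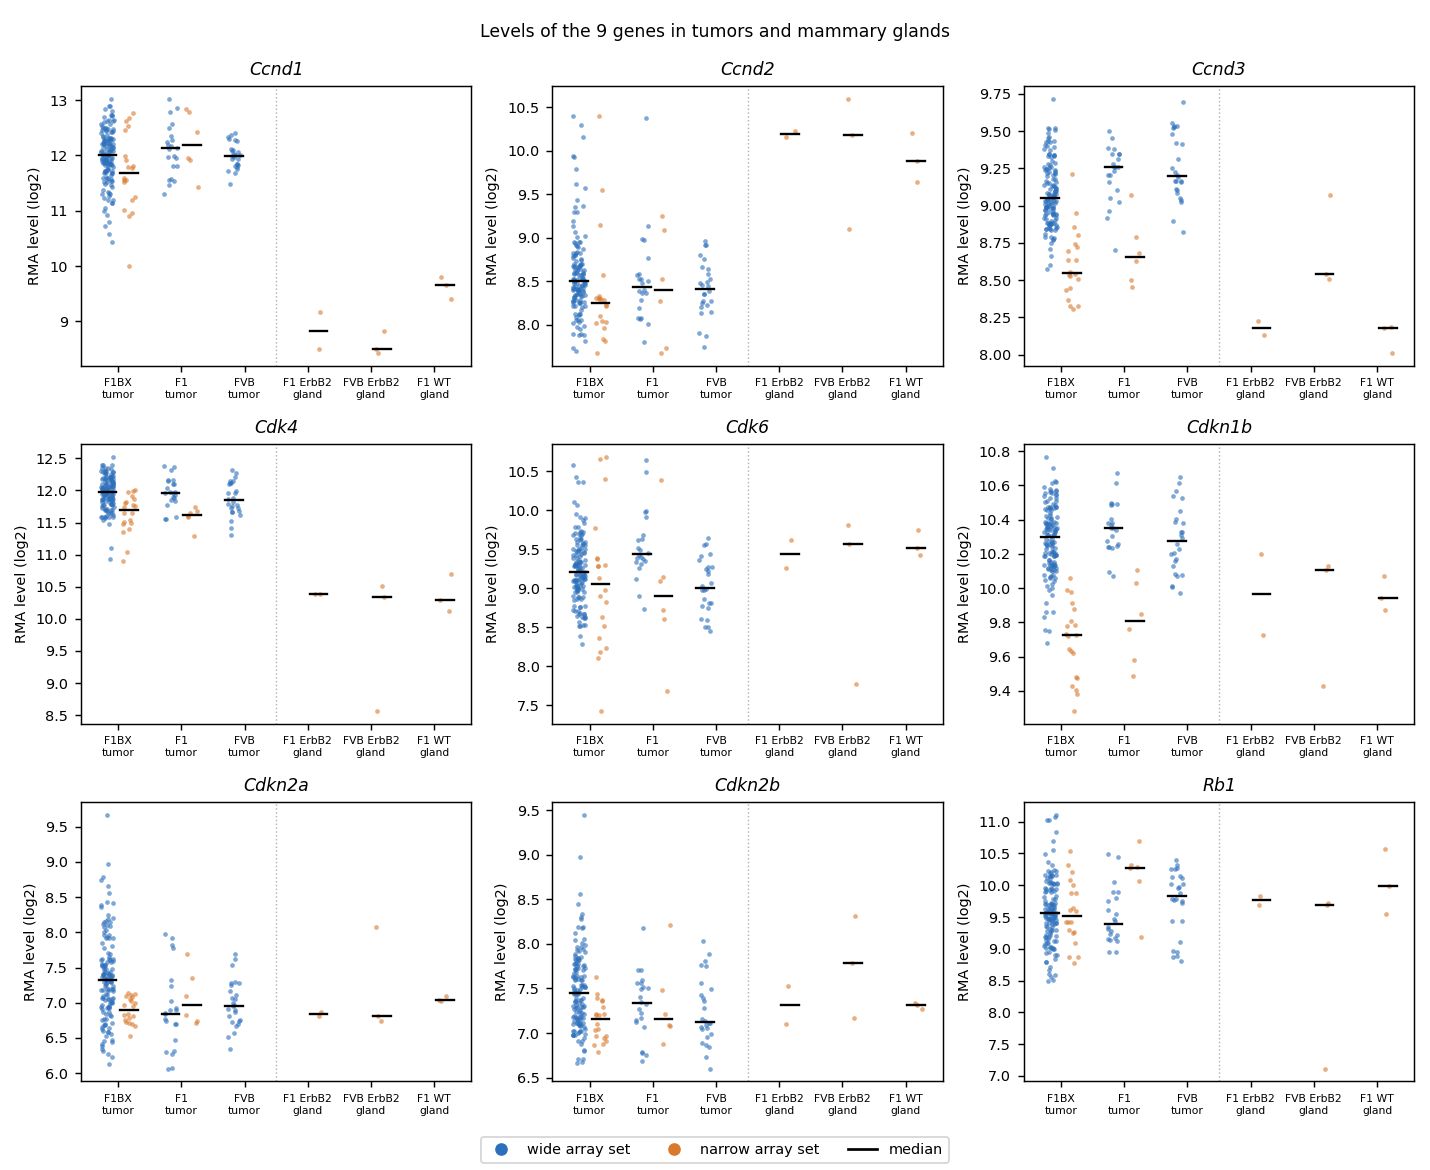
RMA level (log2, vertical axis) of each of the 9 genes in every array, by group, with the wide set in blue, the narrow set in orange and medians as bars. Every tumor lies above every gland for Ccnd1 and Cdk4, and most tumors lie below every gland for Ccnd2.

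Ccnd1 (cyclin D1, probe set 10569646, chr7:144929931-144939831 in GRCm38.p6) had the largest difference of the 9 genes. In the wide set it was 10.43 at the lowest, 12.01 at the median and 13.02 at the highest. In narrow tumors it was 10.00, 11.79 and 12.84. The F1 MMTV-ErbB2 glands had 8.49 and 9.17, the FVB MMTV-ErbB2 glands 8.49, 8.43 and 8.83, and the F1 wild type glands 9.66, 9.81 and 9.40. All 188 wide and all 26 narrow tumors were above every gland, and the 3 wild type glands were above all 5 transgenic ones. The share of all probe sets that part tumors from glands in this way, as Cdk4 also does below, was not counted. Nor was the share that part wild type from transgenic glands. The difference over all arrays was 7.65-fold (95% interval of the log2 difference 2.58 to 3.29, adjusted p = 8.65e-38). In the narrow set it was 6.88-fold (2.26 to 3.31, adjusted p = 4.13e-11). The lowest tumor, 076T1, was also 1 of the 4 with Erbb2 in the range of the glands, and without those 4 the narrow difference was 2.87. The position of the gene given here is from RefSeq, since no source used here names the build behind the array annotation.

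Ccnd2 (cyclin D2, probe set 10548105, chr6:127125162-127152188) went the other way. It was 7.70 at the lowest, 8.48 at the median and 10.40 at the highest in wide tumors, and 7.68, 8.28 and 10.40 in narrow tumors. Glands of F1 MMTV-ErbB2 mice had 10.23 and 10.15, the FVB MMTV-ErbB2 glands 10.59, 10.18 and 9.10, and the F1 wild type glands 9.88, 9.64 and 10.20. Below every gland were 171 of 188 wide and 22 of 26 narrow tumors, and the rest overlapped the glands. The difference was 2.78-fold lower over all arrays (SE 0.182 on the log2 scale, adjusted p = 1.48e-13) and 3.06-fold lower in the narrow set (SE 0.233, adjusted p = 4.03e-07). Markers of fibroblasts, of basal cells and of endothelium were lower in tumors as well. The mean of the fibroblast list was 7.09 to 12.09 in wide tumors (median 9.20) and 7.16 to 11.51 in narrow tumors (median 9.12), against 9.95 to 11.43 in glands (median 10.94). Of its markers 7 of 8 were called lower over all arrays and 5 of 8 in the narrow set. The mean of the basal list was 6.77 to 8.71 in wide and 6.94 to 9.19 in narrow tumors, against 8.07 to 10.52 in glands, with 7 of 8 markers called lower over all arrays and 6 of 8 in the narrow set. That of the endothelial list was 7.34 to 10.25 and 7.20 to 9.16, against 8.05 to 9.55 in glands, with 4 of 7 and 6 of 7 called lower. The T and B cell lists were lower too, with 6 of 6 and 5 of 5 measured markers called in both comparisons. Other lists did not fall in this way. Of 7 macrophage markers 1 was called higher and 1 lower over all arrays, and 1 lower in the narrow set, with median differences of 0.35 and 0.01. Of 7 adipocyte markers 1 was called lower in both. Of 9 luminal markers 4 were called higher and 1 lower in both. Over all arrays 17.5% of probe sets were called higher and 10.7% lower, and in the narrow set 7.37% and 4.76%. The part of any of these lists in the difference of Ccnd2 was not tested.

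Ccnd3 (cyclin D3, probe set 10445688, chr17:47505051-47599689) was 8.58 at the lowest, 9.10 at the median and 9.72 at the highest in wide tumors. In narrow tumors it was 8.31, 8.59 and 9.21. The F1 MMTV-ErbB2 glands had 8.13 and 8.22, the FVB MMTV-ErbB2 glands 8.54, 8.51 and 9.07, and the F1 wild type glands 8.18, 8.01 and 8.19. Within the range of the glands were 84 of 188 wide tumors, with the rest above it, against 25 of 26 narrow tumors, so the overlap with the glands depended on the array set. The log2 difference was 0.70 over all arrays (adjusted p = 9.67e-11) and 0.27 in the narrow set (adjusted p = 0.0304), under 2-fold in both. After quantile normalization of all arrays it was 0.16 (adjusted p = 0.0858).

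Cdk4 (probe set 10366814, chr10:127063535-127067288), the kinase partner whose start region is shown above, was 10.93 at the lowest, 11.97 at the median and 12.52 at the highest in wide tumors. In narrow tumors it was 10.91, 11.65 and 12.01. Glands of F1 MMTV-ErbB2 mice had 10.39 and 10.38, the FVB MMTV-ErbB2 glands 10.52, 10.35 and 8.57, and the F1 wild type glands 10.29, 10.70 and 10.12. Every tumor array was above every gland, and FVB MMTV-ErbB2 gland 3 was far below the other 7. The difference was 3.36-fold over all arrays (SE 0.108 on the log2 scale, adjusted p = 5.95e-38) and 2.75-fold in the narrow set (SE 0.155, adjusted p = 7.61e-10). Without that gland the log2 difference was 1.52 over all arrays and 1.23 in the narrow set, and it passed in both.

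Cdk6 (probe set 10519324, chr5:3341004-3531008), the other kinase of the D cyclins, was 8.29 at the lowest, 9.25 at the median and 10.65 at the highest in wide tumors, and 7.43, 9.03 and 10.69 in narrow tumors. The F1 MMTV-ErbB2 glands had 9.26 and 9.62, the FVB MMTV-ErbB2 glands 9.82, 9.57 and 7.77, and the F1 wild type glands 9.43, 9.74 and 9.52. Within the range of the glands were 172 wide and 20 narrow tumors. The difference was -0.12 over all arrays (95% interval -0.49 to 0.24, adjusted p = 0.537) and -0.30 in the narrow set (-0.93 to 0.34, adjusted p = 0.433), so a 2-fold change lay outside both intervals.

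Cdkn1b (p27, probe set 10542310, chr6:134920401-134925525) was 9.68 at the lowest, 10.31 at the median and 10.77 at the highest in wide tumors, and 9.28, 9.73 and 10.11 in narrow tumors. Glands of F1 MMTV-ErbB2 mice had 10.20 and 9.73, the FVB MMTV-ErbB2 glands 10.10, 10.13 and 9.43, and the F1 wild type glands 9.94, 10.07 and 9.87. Within the range of the glands were 61 of 188 wide tumors, with all others above it, and 23 of 26 narrow tumors, with the other 3 below it. The sign of the difference followed the array set, at 0.29 over all arrays (adjusted p = 0.00652) and -0.22 in the narrow set (adjusted p = 0.0529), and after quantile normalization of all arrays it was -0.16 (adjusted p = 0.0489). The second probe set of Cdkn1b (10542317) differed by 0.06 over all arrays (adjusted p = 0.786) and by -0.82 in the narrow set (adjusted p = 0.00298). No direction for Cdkn1b is drawn from these values.

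Cdkn2a (p16 and p19ARF, probe set 10514340, chr4:89274473-89294619) was 6.06 at the lowest, 7.20 at the median and 9.67 at the highest in wide tumors, and 6.53, 6.89 and 7.69 in narrow tumors. The F1 MMTV-ErbB2 glands had 6.81 and 6.87, the FVB MMTV-ErbB2 glands 6.73, 6.81 and 8.07, and the F1 wild type glands 7.10, 7.03 and 7.04. The wide tumors reached beyond the glands on both sides, with 20 above every gland and 37 below every gland. Of 26 narrow tumors 0 lay above every gland and 6 below. The reach thus depended on the array set, and all glands were in the narrow set. The mean of the tumors stayed near that of the glands. The difference was 0.15 over all arrays (95% interval -0.26 to 0.56) and -0.12 in the narrow set (-0.36 to 0.12). This probe set does not tell p16 from p19ARF transcripts here, since only 1 value was given for the gene.

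Cdkn2b (p15, probe set 10514347, chr4:89306289-89311032) was 6.60 at the lowest, 7.39 at the median and 9.45 at the highest in wide tumors, and 6.78, 7.16 and 8.21 in narrow tumors. Glands of F1 MMTV-ErbB2 mice had 7.10 and 7.53, the FVB MMTV-ErbB2 glands 7.17, 7.79 and 8.32, and the F1 wild type glands 7.34, 7.31 and 7.27. Most wide tumors (140 of 188) lay within the range of the glands, 43 below it and 5 above. Of 26 narrow tumors 14 lay within it, 12 below and 0 above. The difference was -0.08 over all arrays (adjusted p = 0.629) and -0.29 in the narrow set (adjusted p = 0.0565).

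Rb1 (probe set 10421526, chr14:73192858-73325951), the substrate of the kinases, was 8.49 at the lowest, 9.57 at the median and 11.11 at the highest in wide tumors, and 8.78, 9.63 and 10.69 in narrow tumors. The F1 MMTV-ErbB2 glands had 9.70 and 9.84, the FVB MMTV-ErbB2 glands 9.72, 9.69 and 7.11, and the F1 wild type glands 9.55, 10.57 and 9.99. The difference was 0.08 over all arrays (95% interval -0.31 to 0.47). In the narrow set it was 0.18 (-0.35 to 0.72). Its sign rested on FVB MMTV-ErbB2 gland 3, since without that gland the difference was -0.26 over all arrays and -0.16 in the narrow set, neither called. Without the same gland Cdk6 differed by -0.35 and -0.52 and Cdkn2a by 0.29 and 0.02 in those comparisons, again with no call.

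**Figure D2:**
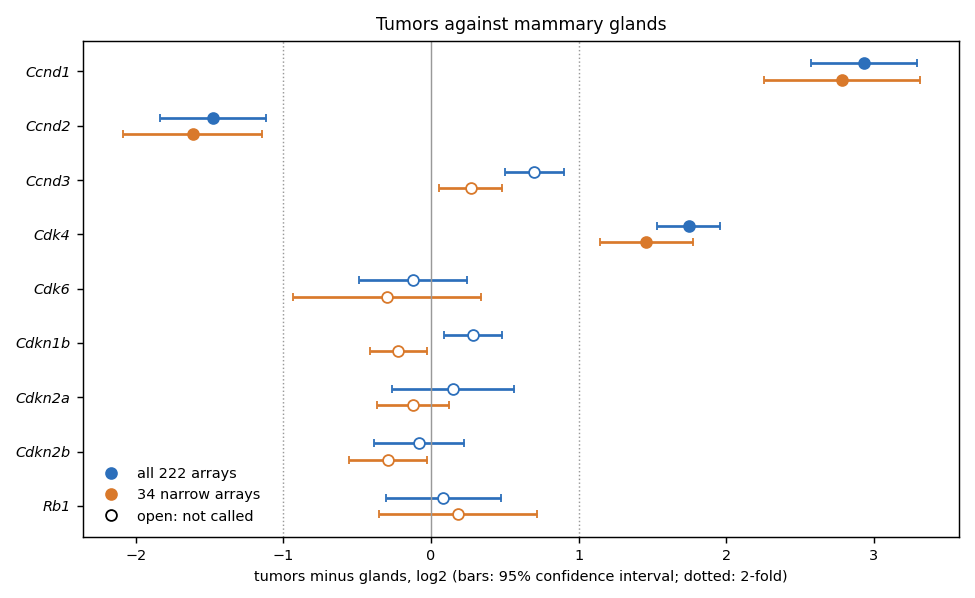
Tumors minus glands (log2, horizontal axis) with 95% confidence intervals for each gene, over all 222 arrays in blue and the 34 narrow arrays in orange. Filled points are called, and only Ccnd1, Ccnd2 and Cdk4 lie beyond the dotted 2-fold lines.

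Genes that act with the 9 were read from lists chosen by their known roles. Over all arrays 17.5% of probe sets were called higher and 10.7% lower, and in the narrow set 7.37% and 4.76%. No list was tested against these shares. Of 13 measured E2F target genes of DNA replication, 11 rose in tumors over all arrays and 8 in the narrow set. The largest differences were those of Rrm2 and Rrm1, the subunits of ribonucleotide reductase, at 3.75 and 2.35 over all arrays and 3.17 and 2.17 in the narrow set. Of 11 mitosis genes, 10 rose over all arrays and 9 in the narrow set, among them Bub1, a spindle checkpoint kinase (2.82 and 1.97), and Kif11, a spindle motor (2.69 and 2.37). Mki67 itself rose by 1.64 over all arrays and 1.94 in the narrow set. The list medians over all arrays were 1.49 for the E2F targets and 2.15 for the mitosis genes, beside -0.11 for all probe sets. Of the 5 genes of cyclins E and A with CDK2, 4 rose over all arrays and 3 in the narrow set. Ccna2 (cyclin A2) differed by 2.5 and 2.32, and Ccne2 (cyclin E2) by 1.65 and 1.06.

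Among the relatives of the 9 genes, Cdkn2c, which encodes the INK4 inhibitor p18, rose by 2.25 over all arrays (SE 0.222, adjusted p = 3.5e-19) and by 1.59 in the narrow set, the only 1 of 3 further inhibitors called in either. Rbl1 (p107) was 1 of 2 further RB family genes to rise, by 1.54 and 1.17. Of 10 E2F and DP factors, Tfdp2 (1.97 and 1.53) and Tfdp1 (1.20 and 1.04), the DP partners of E2F, rose in both comparisons, and E2f6, a repressor of the family, rose by 1.42 over all arrays alone. Of 15 measured p53 pathway genes, Perp (1.88 and 1.37) and Ccng1 (1.60 and 1.44) rose, while Gadd45a (-1.5 and -1.95) and Btg2 (-1.34 and -1.78) fell in both. These 2 of 15 in each direction were near the shares of all probe sets over all arrays, 17.5% higher and 10.7% lower. In the narrow set the shares were 7.37% and 4.76%. Of 8 genes of the turnover and assembly of cyclin D and p27, 6 rose over all arrays, led by Cks2 (1.91) and Fbxo31 (1.78), a ubiquitin ligase subunit that targets cyclin D1. In the narrow set only Cks1b, a cofactor of p27 degradation, was called (1.06).

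Among glands, the MMTV-ErbB2 transgene was compared with wild type on the F1 background. None of the 9 genes was called in the 2 F1 MMTV-ErbB2 glands against the 3 F1 wild type glands, where 0.667% of probe sets were called higher and 0.253% lower. Ccnd1 had the largest difference, at 8.49 and 9.17 in transgenic glands and 9.66, 9.81 and 9.40 in wild type glands. These few values do not overlap, but the share of all probe sets that part the 2 groups in this way was not counted. The difference was -0.79 (95% interval -1.90 to 0.32, adjusted p = 0.751). Erbb2 was 9.78 and 10.48 in the transgenic glands and 8.26, 8.30 and 8.35 in the wild type glands, and it too missed the threshold (1.83, adjusted p = 0.427). The interval of every one of the 9 genes crossed 0, and that of Cdk6 ran from -1.61 to 1.36. In the same comparison 3 of 6 T cell markers were called higher and 2 of 8 basal markers lower, and their part in these values was not tested. The spread behind these values is that of all narrow arrays, tumors included.

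Between backgrounds, each comparison within the wide set called 1 of the 9 genes. Cdk6 rose in F1 tumors relative to FVB tumors, Ccnd3 fell in F1BX tumors relative to FVB tumors, and Cdkn2a rose in F1BX tumors relative to F1 tumors. A call here needed an adjusted p under 0.05. In F1 against FVB tumors 5.78% of probe sets were called higher and 6.47% lower. The shares were 3.58% and 3.16% in F1BX against FVB tumors, and 1.97% and 1.68% in F1BX against F1 tumors. The 3 comparisons share arrays with each other.

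Cdk6 was 8.73 at the lowest, 9.44 at the median and 10.65 at the highest in F1 tumors. It was 8.45, 9.01 and 9.65 in FVB tumors, so the groups overlapped over most of their range. The mean was 9.55 ± 0.45 (SD, n = 22) in F1 tumors and 9.03 ± 0.35 (SD, n = 26) in FVB tumors, and the fitted difference was 0.52 (SE 0.123, adjusted p = 0.00179). F1BX tumors lay between, at a median of 9.21, with a difference from FVB of 0.21 (adjusted p = 0.152) and from F1 of -0.31 (adjusted p = 0.0505). The difference between F1BX and F1 passed the threshold under 4 of the alternatives given in the closing section.

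Ccnd3 averaged 9.08 ± 0.21 in F1BX tumors (SD, n = 140) and 9.26 ± 0.22 in FVB tumors (SD, n = 26). It ranged from 8.58 to 9.72 in F1BX tumors and from 8.82 to 9.69 in FVB tumors. The difference of -0.18 (SE 0.0461, adjusted p = 0.00803) was smaller than 1 SD of either group. F1 tumors averaged 9.21 ± 0.19 (SD, n = 22).

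Cdkn2a was 6.13 at the lowest, 7.33 at the median and 9.67 at the highest in F1BX tumors, against 6.06, 6.84 and 7.97 in F1 tumors. The groups overlapped, and all tumors above 7.97 were F1BX. The difference was 0.45 (SE 0.136, adjusted p = 0.0386). It lost the call after quantile normalization (adjusted p = 0.0536), with 1 array per mouse (0.100) and over all tumors with the array set as a term (0.0932). Against FVB tumors, at 6.35, 6.96 and 7.70, F1BX tumors were 0.36 higher (adjusted p = 0.0557). Cdkn2b, its neighbour, was 0.17 higher in F1BX than in F1 tumors (adjusted p = 0.311) and 0.24 higher than in FVB tumors (adjusted p = 0.101).

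For Ccnd1, Ccnd2, Cdk4, Cdkn1b and Rb1 no difference between backgrounds passed with the probe set used. The intervals were narrow for Cdk4, whose difference was 0.11 between F1 and FVB tumors (95% interval -0.04 to 0.25) and 0.10 between F1BX and FVB tumors (-0.01 to 0.21). For Cdkn1b the 2 probe sets disagreed. The one used gave 0.08 in F1 against FVB tumors and 0.00 in F1BX against FVB tumors, and the second gave 0.76 (adjusted p = 2.03e-06) and 0.47 (adjusted p = 1.55e-04).  In the narrow set, F1BX against F1 tumors gave 0% of probe sets called in either direction in limma, with 596 higher and 574 lower at an unadjusted p under 0.05. Rb1 (9.57 ± 0.50, SD, n = 20, in F1BX tumors and 10.14 ± 0.51, SD, n = 6, in F1 tumors) and Ccnd1 (11.69 ± 0.70 and 12.22 ± 0.55) had the largest differences there, -0.56 and -0.53, both with an adjusted p of 1.0.

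Some genes of the listed families were called between backgrounds. In F1 against FVB tumors 2 of 10 E2F and DP factors were higher and 1 lower, and 3 of 15 p53 genes higher. Lower were 1 of 2 RB family genes, 1 of 3 further inhibitors and 1 of 8 turnover genes. No E2F target, mitosis gene or gene of cyclins E and A with CDK2 was called. Over all probe sets 5.78% were called higher and 6.47% lower, and no list was tested against these shares. In F1 against FVB tumors, E2f3 was 0.28 higher and E2f6 0.20 higher, E2f2 differed by -0.30, Rbl2 (p130) by -0.49 and Cdkn1c (p57) by -0.47, and Fbxo31 by -0.45. Of the p53 genes, Phlda3 (0.62), Zmat3 (0.40) and Mdm4 (0.14) were higher in F1 than in FVB tumors. In F1BX against FVB tumors, E2f3 (0.22) was higher, and E2f2 (-0.17), Rbl2 (-0.26) and Cdc20 (-0.26) were lower. Phlda3 (0.65), Gadd45a (0.42), Zmat3 (0.35) and Mdm2 (0.15) were the 4 of 15 p53 genes higher in F1BX than in FVB tumors. Over all probe sets 3.58% were called higher there and 3.16% lower. Eda2r (0.61) was the only listed pathway gene called between F1BX and F1 tumors, where 1.97% of probe sets were called higher and 1.68% lower. In the glands, and between F1BX and F1 tumors in the narrow set, none of the pathway lists had a called gene.

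The relation to cycling was read as the slope of each gene on Mki67 among tumors, with background as a covariate and the 2 array sets apart. In wide tumors Mki67 was 7.46 at the lowest, 9.96 at the median and 10.86 at the highest. Ccnd1, Cdk4 and Cdkn1b were higher in tumors with more Mki67, and Rb1, Ccnd2 and Cdkn2b were lower. Per log2 unit of Mki67, Ccnd1 was 0.26 higher (SE 0.0669, adjusted p = 0.00161), Cdk4 0.13 (SE 0.0361, adjusted p = 0.00311) and Cdkn1b 0.08 (SE 0.0289, adjusted p = 0.0295). The slopes were -0.30 for Rb1 (SE 0.0741, adjusted p = 9.95e-04), -0.25 for Ccnd2 (SE 0.0682, adjusted p = 0.00381) and -0.21 for Cdkn2b (SE 0.0620, adjusted p = 0.00686). Ccnd3 (-0.07, adjusted p = 0.135), Cdk6 (-0.04, adjusted p = 0.775) and Cdkn2a (-0.19, adjusted p = 0.125) did not pass. So 3 of 9 genes were called in each direction, where 9.02% of probe sets had a higher and 9.33% a lower slope. With Top2a or the mean of the mitosis genes in place of Mki67, Cdkn2b lost the call (-0.04 and -0.09, adjusted p = 0.699 and 0.362). That mean includes Mki67, so it is not a separate measure. Ccnd3 (-0.14 and -0.10) was then called lower and Cdk6 (0.25 and 0.19) higher, so these 3 depended on the measure of cycling.

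**Figure D3:**
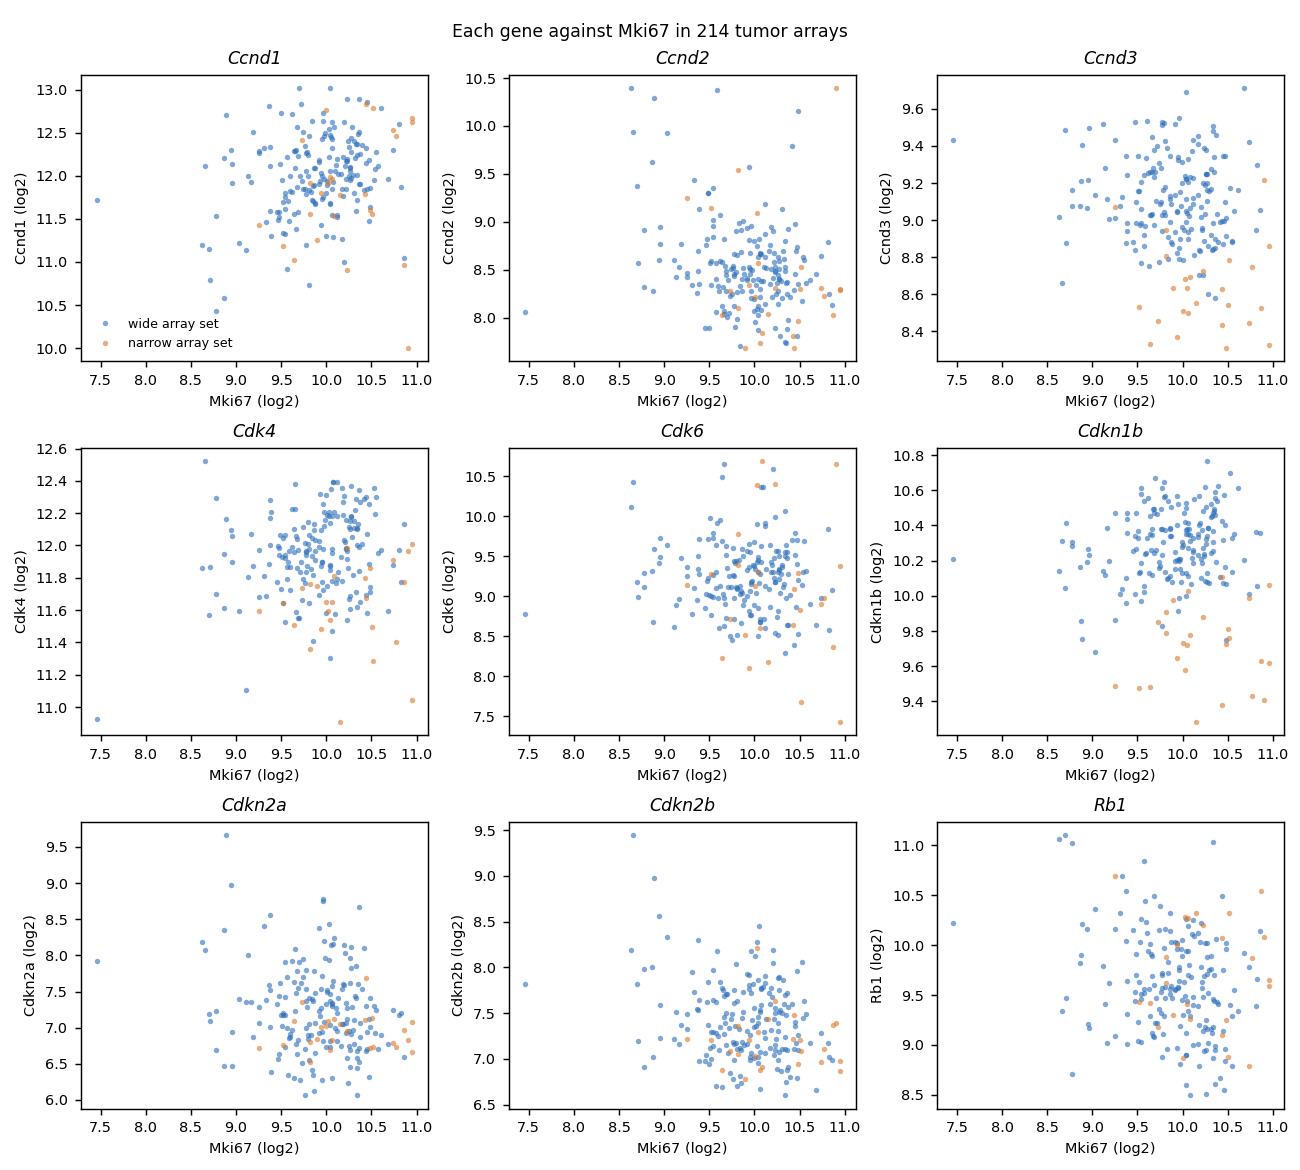
Level of each gene (log2, vertical axis) against Mki67 (log2, horizontal axis) in 214 tumor arrays, with the wide set in blue and the narrow set in orange. The clouds are broad for every gene, and the tumor with the lowest Mki67 (7.46) also has the lowest Cdk4 of the wide set (10.93).

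These slopes were small beside those of genes that run the cycle itself. Plk1, a mitotic kinase, and Rrm2 each had a slope of 0.91, Ccna2 of 0.87 and Bub1 of 0.86. All 13 measured E2F targets, all 5 genes of cyclins E and A with CDK2 and all 10 mitosis genes besides Mki67 had higher slopes that passed. The list medians were 0.54, 0.38 and 0.78, beside 0.00 for all probe sets. The median of the mitosis list counts Mki67 too, whose slope on itself is fixed in advance. Of the E2F and DP factors 6 of 10 were higher, led by E2f8 (0.52) and E2f1 (0.31). The inhibitor genes Cdkn2c (0.25) and Cdkn2d, which encodes p19INK4d (0.20), were higher with Mki67, as was Rbl1 (0.32), whereas Rb1 and Cdkn2b were lower. Of the turnover genes, Cks2 (0.61) and Skp2 (0.43), which marks p27 for degradation, were higher with Cks1b (0.29), and Fbxo31 (-0.26) and Fbxo4 (-0.20), which act on cyclin D1, were lower. Of the 15 p53 genes, Eda2r (0.34) and Perp (0.13) were higher and Sesn1 (-0.22) and Btg2 (-0.20) lower. Over all probe sets 9.02% had a higher and 9.33% a lower slope.

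Markers of stroma and of immune cells fell as Mki67 rose in the same tumors. Of 8 fibroblast markers 5 had a lower slope, led by Dcn (-0.56) and Col1a2 (-0.35), and of 7 macrophage markers 6 did, led by Cd14 (-0.71) and Mrc1 (-0.38). The other lists had 3 of 6 T cell, 2 of 7 endothelial and 1 of 5 B cell markers lower, 1 of 8 basal markers higher and 1 lower, and 0 of 9 luminal and 0 of 7 adipocyte markers called. Over all probe sets 9.33% had a lower and 9.02% a higher slope. With the means of 6 marker lists as further terms (fibroblasts, endothelium, T cells, B cells, macrophages and adipocytes), Cdk4 (0.11) and Cdkn2b (-0.18) kept the call. Ccnd1 (0.11, adjusted p = 0.389), Ccnd2 (-0.04, adjusted p = 0.747), Cdkn1b (0.07, adjusted p = 0.132) and Rb1 (-0.13, adjusted p = 0.329) did not. Across the 188 wide tumors, centred by background, Ccnd2 had a correlation of 0.67 with the fibroblast list, 0.64 with macrophages, 0.63 with endothelium and -0.27 with luminal epithelium. Ccnd1 had -0.40 with macrophages, Rb1 0.36 with macrophages, Cdk4 -0.39 with T cells and Cdkn2b -0.37 with luminal epithelium. These points share arrays and RNA, and the correlations are descriptions.

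**Figure D4:**
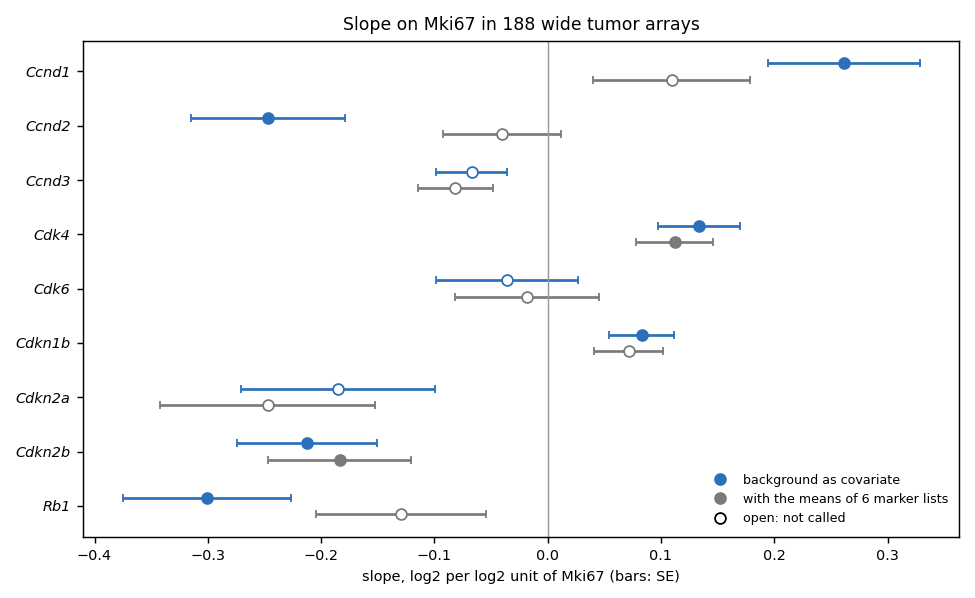
Slope on Mki67 (log2 per log2 unit of Mki67, horizontal axis, bars SE) for each gene in the 188 wide tumor arrays, with background as covariate in blue and with the means of 6 marker lists added in grey. Filled points are called, 6 genes without the marker terms and 2, Cdk4 and Cdkn2b, with them.

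With the first tumor of each mouse, which leaves out 57 wide arrays, Pearson's r with Mki67 ran from -0.30 for Ccnd2 to 0.30 for Cdk4. Of 18 relations tested by 100000 two-sided permutations over both array sets, Cdk4, Ccnd2 and Cdkn2b (r = -0.28) had an adjusted p of 0.00744. Cdkn2a and Rb1 (both -0.27) had 0.00824, and Cdkn1b (0.25) had 0.0134. Ccnd1 (0.18) and Ccnd3 (-0.18) had an adjusted p of 0.0963. By Spearman's rho only Cdk4 (0.25) and Rb1 (-0.25) passed, both with an adjusted permutation p of 0.0400. The 2 tumors farthest from the median of Mki67 were 084T1 and 187T1. Without them r was 0.16 for Cdk4, -0.18 for Rb1, -0.31 for Ccnd2 and -0.26 for Cdkn2b, so the relation of Cdk4 rested in part on those 2. In limma its slope without them was 0.09 (adjusted p = 0.106).

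In the narrow set none of the 9 genes had a called slope, where 0.113% of probe sets were called higher and 0.0141% lower. Ccnd1 had the steepest, 0.43 (95% interval -0.14 to 0.99) and Rb1, at 0.10 (-0.34 to 0.54), had the opposite sign to its slope in wide tumors. Over the 26 narrow tumors r ran from -0.09 to 0.18, with no adjusted permutation p under 0.737. Of the listed genes, Kif11 (0.71), Plk1 (0.68) and Rrm1 (0.48) passed there. No difference in slope between backgrounds passed in limma, with 0 probe sets called and 1466 (F1 minus FVB) and 861 (F1BX minus FVB) at an unadjusted p under 0.05. The differences were imprecise, at -0.27 (SE 0.375) for Ccnd1 in F1 minus FVB tumors, so sizeable ones could have been missed. For Cdk6, the most divergent of the 9, the slope was -0.32 (SE 0.218) in F1, -0.03 (SE 0.0672) in F1BX and 0.27 (SE 0.273) in FVB tumors.

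Cdkn2b rose with Cdkn2a across wide tumors, by 0.48 per log2 unit (SE 0.0408, adjusted p = 4.89e-20), where 2.39% of probe sets rose with Cdkn2a. With 1 tumor per mouse r was 0.67 and rho 0.62 (both p = 1e-05, the smallest the permutations can give, adjusted over 5 relations to 5e-05). Without 160T1 and 229T1, the tumors farthest from the median, r was 0.61. The genes are neighbours on chromosome 4, with 0 protein-coding genes annotated between them. The tumor with the highest Cdkn2a, 160T1 (9.67), had 8.97 for Cdkn2b, while the highest Cdkn2b, 9.45, was in 168T1, with 8.08 for Cdkn2a. Rb1 did not pass against Cdkn2a (slope 0.08, adjusted p = 0.599).

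Ccnd2 was lower in wide tumors with more Ccnd1, with a slope of -0.25 per log2 unit (SE 0.0719, adjusted p = 0.00574), where 8.07% of probe sets had a lower slope on Ccnd1. With 1 tumor per mouse r was -0.23 and rho -0.29, with adjusted permutation p-values of 0.0174 and 0.00177, and r was -0.26 without 026T1 and 247T1, the tumors farthest from the median of Ccnd1. With the 6 marker lists as terms the slope was 0.01 (adjusted p = 0.964), and with 1 array per mouse -0.21 (adjusted p = 0.107). Ccnd3 did not pass against Ccnd1 (-0.03, adjusted p = 0.547) or Ccnd2 (-0.05, adjusted p = 0.294), where 18.7% of probe sets had a lower slope on Ccnd2. Without the background covariate, Ccnd3 and Ccnd2 had r = -0.19 over 1 tumor per mouse (adjusted permutation p = 0.0471).

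**Figure D5:**
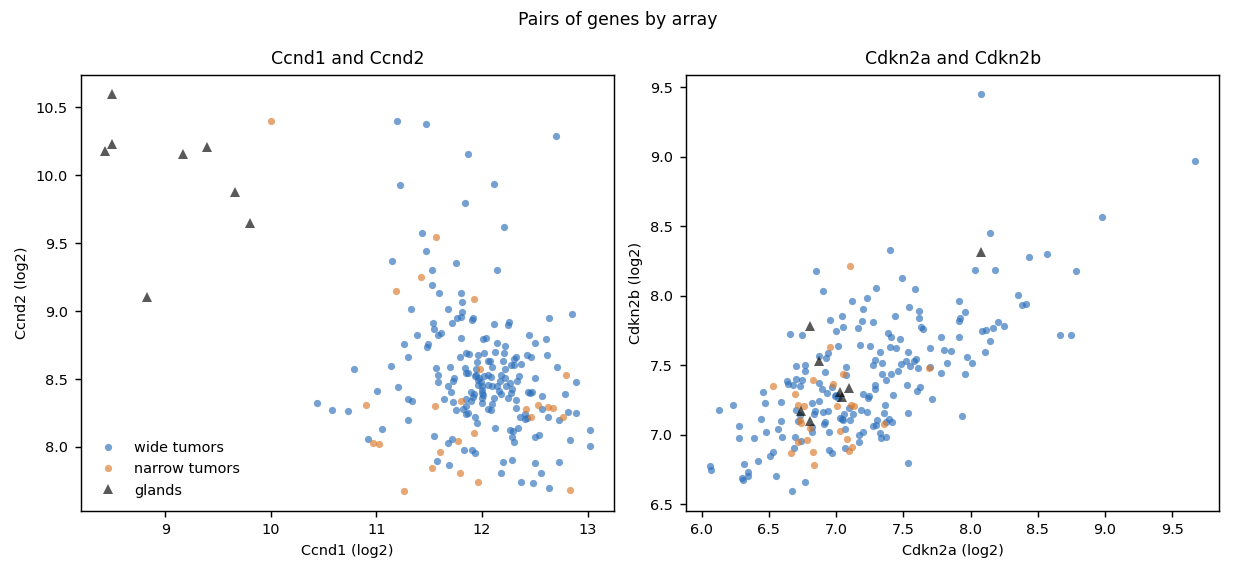
Ccnd2 against Ccnd1 (left) and Cdkn2b against Cdkn2a (right), all log2, for each wide tumor (blue), narrow tumor (orange) and gland (triangles). Glands lie apart from tumors at low Ccnd1 on the left, and on the right they lie within the rising cloud of the tumors.

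Other pairs of the 9 genes are given as descriptions over the 188 wide tumors, centred by background. Cdk4 and Cdk6 had r = 0.57, Ccnd2 and Cdkn2b 0.45, Cdk4 and Cdkn2b 0.40, and Ccnd1 and Cdkn2a 0.35. Rb1 had -0.37 with Cdk4, -0.32 with Cdkn1b and -0.30 with Ccnd1, and Ccnd3 had -0.38 with Cdk4. Among 18538 genes, those most like each were named by the 3 highest r. Ccnd2 was most like Hspg2 (0.79), Col6a2 (0.78) and Col6a1 (0.78), which encode basement membrane perlecan and collagen VI chains. Cdk4 was most like Hdac2 (0.80), a histone deacetylase, Tcf3 (0.77) and Snrpd3 (0.75), and Cdk6 like Cad (0.63), an enzyme of pyrimidine synthesis, Septin11 (0.63) and Hdac2 (0.61). Ccnd1 was most like Cdkn2c (0.60), Lnx1 (0.57) and Pradc1 (0.56), and Ccnd3 like Smarcd2 (0.60), Mlph (0.56) and Cited4 (0.55).

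For the inhibitors the highest r were lower, apart from the INK4 neighbours. Cdkn1b was most like Kdm3a (0.61), a histone demethylase, Bhlhe40 (0.58) and Efna1 (0.56). Cdkn2a was most like Cdkn2b (0.66), Ephx1 (0.57) and Sesn2 (0.52), and Cdkn2b like Mtap (0.70), Cdkn2a (0.66) and Lix1l (0.65). Mtap, an enzyme of methionine salvage, lies on chromosome 4 with 1 protein-coding gene between it and Cdkn2b. Rb1 was most like Mir687 (0.92), a microRNA annotated within Rb1, then Lamb3 (0.73) and Eps15 (0.73).

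Tumors of 1 mouse were only weakly alike in these genes. Over 38 mice with at least 2 wide tumors, the correlation within a mouse was lowest for Cdk4 (-0.06) and highest for Cdkn2b (0.29), with 0.14 for Cdkn2a and 0.08 for Ccnd1. The median range within a mouse was 0.22 for Cdkn1b, 0.28 for Cdk4 and Ccnd3, 0.63 for Ccnd1, 0.64 for Ccnd2 and 0.72 for Rb1. The SD over all wide tumors was 0.20 for Cdkn1b, 0.25 for Cdk4, 0.46 for Ccnd1 and 0.52 for Rb1. The widest case was Ccnd2 in mouse 187, with 10.40 in 187T1 and 7.70 in 187T3, the highest and the lowest of the whole wide set. In mouse 268 Cdkn2a was 8.36 in 268T1 and 6.31 in 268T5, and in mouse 299 Rb1 was 10.70 in 299T1 and 8.94 in 299T6. In mouse 26 Ccnd1 was 10.73 in 026T1 and 12.36 in 026T3.

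The tumors 035T1 and 246T1 were run again by name, as 035T1R and 246T1R, once in each array set. Cdk4 was 12.30 in the wide and 11.99 in the narrow array of 035T1, and 11.85 and 11.65 for 246T1. Rb1 was 10.22 and 10.20 for 035T1, and 8.90 and 8.87 for 246T1, so both genes kept the order of the 2 tumors. Ccnd3 (9.07 and 8.72, and 9.11 and 8.51), Cdkn1b (10.10 and 9.88, and 10.00 and 9.73) and Cdkn2a (7.58 and 6.95, and 7.37 and 7.03) were lower in the narrow array each time.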

How the data were processed

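Total RNA from each tumor or gland was hybridised to 1 Affymetrix mouse gene 1.0 ST array. The deposited values are log2 levels that the authors normalized by RMA in expression console software (version not given in the sources used here). Rows of the table (35556 probe sets) were named from the platform table: 21789 carry 1 symbol, 1621 several and 12146 none. Groups follow the labels. Differences and slopes were fitted on the log2 values with limma 3.58.1 (R 4.3.3, statmod 1.5.0) over all probe sets, with Benjamini-Hochberg adjustment and the mouse, read from array names, as a random block (correlation 0.259 over all arrays, 0.0906 in wide tumors, from every 10th probe set). Alternatives kept these correlations. SAM, the method of the study, was replaced by limma. Correlations tested by permutation used 100000 permutations and had no background covariate. The fits were tested on simulated data. Lists were genes with known roles in the pathway or cell type, and of each list up to 2 called genes a direction, or all of 5 or fewer, were named. The 10 genes, the lists and the tests were chosen with earlier results of these data known. Arrays have no counting depth, and their number limits precision. Nothing says that glands of 1 group were collected separately, so p-values measure the spread between arrays.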

Additional observations from a re-analysis of the deposited data

Results flagged for a closer look

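Dixon's test was applied to each of the 9 genes in the 8 glands and in the 6 narrow F1 tumors, which makes 18 sets of values. In these, 5 values lay far from the rest of their set. The test flags about 1 in 20 sets by chance, but these sets share arrays and are not independent. Of the 5 values, 4 were in FVB MMTV-ErbB2 gland 3, among the 8 glands. Its Cdk4 was 8.57 (next lowest 10.12), its Cdk6 7.77 (next 9.26) and its Rb1 7.11 (next 9.55), and its Cdkn2a was 8.07, the highest (next 7.10). The same gland had the narrowest spread of values of all arrays, with an interquartile range of 1.86. The other was the F1 tumor F1_6T1 in the narrow set, whose Cdk4 was 11.29, below the next of 11.59 among 6 tumors.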

How the results depend on the processing

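Of 866 values of single genes under alternatives, 831 kept their side of the threshold, 17 gained a call, 15 lost one, and 3 changed sign where the value was called with or without the alternative. Of the 831, 48 that were called in neither case changed sign too. The calls of Ccnd1, Ccnd2 and Cdk4 between tumors and glands held under every alternative run. With an adjusted p under 0.05 and no fold threshold, which loosens both limits at once, 29020 probe sets were called over all arrays, with 4 of the 9 genes higher, and 18528 in the narrow set (10026 and 4311 with the limits used). With the array set as a term 4370 were called. Leaving out 1 gland at a time gave 9108 to 10337 calls over all arrays and 4124 to 4456 in the narrow set.

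Between backgrounds, the mean of all probe sets of a gene gave 2 genes higher in F1 against FVB tumors, with Cdkn1b added. In F1BX against FVB tumors 1 gene was called higher with that mean (Cdkn1b), and with the filter on low signal, no mouse block, or without 051T1 and 063T1, whose names have another background's form (Cdkn2a). With 1 array per mouse 1414 probe sets were called there (2398 with all). In F1BX against F1 tumors 0 genes were called higher after quantile normalization, with 1 array per mouse, or over all tumors with the array set as a term. There 1 gene was called lower with the filter, no mouse block, without F21T3 and F21T4 or without tumors of low Erbb2 (Cdk6), and without 051T1 and 063T1 (Ccnd3). Without F21T3 and F21T4 2620 probe sets were called (1297 with them). Leaving out these tumors, or the 2 farthest from the median of Mki67, was chosen after seeing the data.

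In the F1 glands 327 probe sets were called, 52 with the filter and 51 to 1026 leaving out 1 gland at a time. The number was 51 without F1 MMTV-ErbB2 gland 1, 206 without F1 MMTV-ErbB2 gland 2 and 1026 without FVB MMTV-ErbB2 gland 3, and it was also lower by over 1.5 times without F1 wild type gland 2. The glands share only replicate numbers, which nothing says pair them, and the fit with the replicate block called 1028 probe sets. None of the 9 genes was called in any of these.

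For the slope on Mki67 in wide tumors, 6526 probe sets were called. With Top2a in its place 12044 were called, and with the mean of the mitosis genes, Mki67 among them, 11303. Both turned Cdk6 to 0.25 and 0.19, both called, and ended the call of Cdkn2b, while Ccnd3 was called lower. With 6 marker lists as terms 3389 were called, with 1 of the 9 genes higher and 1 lower. With 1 array per mouse 5 genes were lower, with Ccnd3 and Cdkn2a added and the call of Ccnd1 lost, and with ranks 1 was lower (Rb1). In narrow tumors 45 were called, against 26 after quantile normalization, 29 without 035T1R and 246T1R, 1 without the 2 tumors farthest from the median of Mki67, 189 with Top2a, 228 with the mean of the mitosis genes and 0 with ranks, by limma. The slope of Ccnd2 on Ccnd1 was -0.21 with 1 array per mouse and 0.0086 with the marker lists. The cause of these changes was not tested. In the narrow set no mouse is repeated, so the mouse block changes nothing, and the mean of all probe sets of a gene gives no count over probe sets. Signal over background was not available beside the RMA values, so the low levels of Cdkn2a and Cdkn2b have no stated background.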

Other observations

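In 4 tumors Erbb2 lay in the range of the glands, and several extremes of the 9 genes were among them. In 168T1 (wide set, Erbb2 9.32) Cdk4 was 12.52 and Cdkn2b 9.45, the highest of the wide tumors. In 076T1 (narrow set, Erbb2 10.31) Ccnd1 was 10.00, the lowest, and Ccnd2 10.40 and Ccnd3 9.21, the highest of the narrow tumors. In 092T1 (Erbb2 8.32) Cdk6 was 10.69, the highest, and in F1_26T1 (Erbb2 9.72) Cdkn2b was 8.21, the highest of the narrow tumors. These tumors were picked out after their values were seen.

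The tumors F21T3 and F21T4, labelled F1, had 8.76 and 8.96 for D17H6S56E-5, within the 8.42 to 9.92 of FVB tumors, while the other F1 tumors of the wide set had 11.06 to 12.68. The Ccnd2 of F21T3, 10.38, was the highest of the F1 tumors.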
